A study of Mus musculus with 27 samples.

Results

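Border-associated macrophages, the resident macrophages of the edges of the brain, were followed in single-nucleus RNA-seq of the hippocampus of 27 mice. A nucleus was counted as one of them when it had 200 to 4000 genes and at most 5% mitochondrial UMIs (unique molecular identifiers, each of which stands for 1 captured RNA molecule), at least 1 UMI each of at least 2 of the 4 markers Mrc1, F13a1, Cd163 and Lyve1, at least 1 of the 3 immune genes Csf1r, Inpp5d and Ptprc, and no more than 1 UMI of Slc17a7, Mog, Mag and Flt1 together. This rule found 92 nuclei among the 221281 that passed the filter on genes and mitochondrial UMIs (kept nuclei), a share of 0.0416% (exact 95% binomial interval 0.0335 to 0.0510%). They came from 23 of the 27 mice and held 216880 UMIs. The nuclei were chosen by their measured UMIs of the genes in this rule, so their levels against other nuclei are a description.

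Border-associated macrophages sit in the meninges, in the perivascular spaces around vessels and in the choroid plexus, outside the parenchyma that microglia occupy. They take up debris, proteins and iron from the fluid around the brain through scavenger receptors, present antigen and, like microglia, depend on signalling through CSF1R. In the mouse they are usually divided into cells rich in LYVE1 and scavenger receptors and cells rich in MHC class II. cGAS is a sensor of cytosolic DNA that signals through STING to induce interferons, and the study asked how its loss acts in the hippocampus of mice with tau pathology.

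All mice were adults. Those without the tau transgene were Cgas+/+ (5 mice), Cgas+/- (2 mice) or Cgas-/- (2 mice). The others carried the P301S transgene, human tau with the P301S mutation driven by the mouse prion protein promoter, on Cgas+/+, Cgas+/- or Cgas-/- backgrounds (6 mice each). The prion promoter is not specific to macrophages, and the Cgas deletion is present in every cell type, so neither change was confined to these nuclei. The tau-free mice were 7 males and 2 females and the P301S mice 9 males and 9 females. Nuclei were isolated from the hippocampus and sequenced as 1 library a mouse.

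Library totals ran from 46091490 to 79484316 UMIs. The headers named Cell Ranger 3.0.2 for 12 libraries, all of males, and version 3.1.0 for 15. All 92 border macrophage nuclei held 3 UMIs of Cgas, in libraries labelled Cgas+/+ (2 UMIs) and Cgas+/- (1 UMI), too few to check the labels. In microglial nuclei the Cgas transcript did not follow the labels. Those of the libraries labelled P301S Cgas-/- held Cgas at 41.8 CPM, against 28.8 CPM under P301S Cgas+/+. CPM is the usual depth-scaled count unit, here a gene's UMIs over all UMIs summed over the nuclei. Where the counted 3′ tags lie relative to the deleted part of Cgas was not examined, so Cgas genotypes are the labels' genotypes throughout. One library stood apart: Cgas+/+ replicate 5 gave 23 of the 92 nuclei (25%), and the shares and ratios compared by transgene are given without it as well.

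Mrc1, which encodes the mannose receptor CD206 (chromosome 2, 14229392 to 14332057, mm10), was detected in 90 of the 92 nuclei, with a median of 5 UMIs a nucleus. F13a1, the A subunit of coagulation factor XIII (chromosome 13, 36867178 to 37050244), was detected in 85 nuclei with a median of 4 UMIs. Cd163, the receptor for haptoglobin-bound haemoglobin (chromosome 6, 124304656 to 124330527), was found in 47 nuclei. Lyve1, a hyaluronan receptor (chromosome 7, 110850607 to 110863239), was found in only 6. The pair Mrc1 and F13a1 without the other markers therefore admitted 43 nuclei, Mrc1, F13a1 and Cd163 together 35 nuclei, and all 4 markers 3 nuclei.

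The 6 nuclei with Lyve1 all came from tau-free mice, 4 of the 8 tau-free mice that had border macrophage nuclei. None of the 38 nuclei of P301S mice held a Lyve1 UMI, and a count of 0 among 38 allows up to 7.89% of nuclei with such a UMI, which limits detection and not expression. Lyve1 is a gene of the rule and had 9 UMIs in all, so these counts are a description and were not tested.

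Nuclei just outside the rule differed from those inside it. Nuclei with exactly 1 of the 4 markers that met the rest of the rule numbered 213, 158 of them in P301S mice. P301S mice also gave 150536 of the 221281 kept nuclei and 7705 of the 10567 microglial nuclei defined below. Dab2, a gene the rule did not use, stood at 70.4 CPM in the nuclei with 1 marker. Dab2 was at 2152 CPM in the 51 nuclei with exactly 2 markers and at 2609 CPM in the 41 nuclei with 3 or 4. Selplg, a microglial gene, was at 101 CPM in the nuclei with 1 marker and at 8.18 and 21.1 CPM in the others, on 3 UMIs in all 92. A further 27 nuclei with at least 2 markers lacked all 3 immune genes, and their summed Dab2 was 86.0 CPM. Of the nuclei with at least 2 markers, 5 failed on Slc17a7, Mog, Mag and Flt1 and 1 exceeded 4000 genes.

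Free RNA could give a marker UMI to a nucleus of another cell. In oligodendrocyte nuclei (at least 2 UMIs of Mog and Mag, none of the 3 immune genes; median 1974.5 UMIs) 2 of 42115 nuclei held 2 or more of the 4 markers (0.00475%), and in neuronal nuclei (at least 2 UMIs of Slc17a7, none of the immune genes; median 10410 UMIs) 11 of 32100 did (0.0343%). Among nuclei with at least 2 of the 3 immune genes the share was 71 of 10748 (0.661%). Those 71 meet the marker and immune-gene parts of the rule by definition, so this share is not an independent background rate. The border macrophage nuclei had a median of 1673 UMIs and 1121.5 genes, a depth close to that of the oligodendrocyte nuclei. Intervals and floors given here cover counting error only.

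RNA of other cell types was present in some of the 92 nuclei. Neuronal markers (7 genes, among them Syt1 and Snap25) gave at least 1 UMI in 81 nuclei and at least 10 UMIs in 8, of which 5 were in Cgas+/+ replicate 5. A nucleus of P301S Cgas+/- replicate 1 held 13000 of the 22874 UMIs of that mouse's border macrophage nuclei, 84 of them of Syt1. It had 1 UMI each of F13a1 and Cd163 and 0 of Mrc1, Dab2, Rbpj, Stab1 and Aoah. Of these genes only those of the rule mark it as a border macrophage, and it was kept in all values. Markers of astrocytes, oligodendrocytes or their precursors reached 10 UMIs in 12 nuclei, and 11 of these had a doublet score among the highest of their library. In all, 17 of the 92 had such a score. T cell and mast cell markers were at 0 in every nucleus. Choroid plexus epithelium markers gave at least 1 UMI in 23 nuclei, 13 of them in tau-free mice, and at least 10 UMIs in 1. Endothelial markers gave 1 UMI, neutrophil markers 1 and monocyte markers 1. Of 4 B cell markers only Bank1 was found (147 UMIs in 65 nuclei). Of the 92 barcodes, 9 also occurred in another library, and 0 of them were a border macrophage nucleus there.

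Microglial nuclei of the same libraries (at least 2 of the 3 immune genes, none of the 4 markers, 10567 nuclei) served for comparison. Of 4120 genes with a mean level of at least 50 CPM in either class, 284 (6.89%) were at least 2-fold higher in border macrophage nuclei and 350 (8.50%) at least 2-fold lower, with a median log2 ratio of 0.02 over all 4120. These are counts of pooled levels with no test, since the rule separated the classes. Of the border macrophage nuclei 54 of 92 came from tau-free mice, against 2862 of the 10567 microglial nuclei. Pooled levels thus weigh the genotypes differently in the 2 classes.

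Dab2, Aoah and Rbpj had the highest ratios to microglia among the leading genes. Dab2, an adaptor for clathrin-mediated endocytosis (chromosome 15, 6299788 to 6440712), was detected in 88 of 92 nuclei with 510 UMIs. It averaged 2990 ± 1804 CPM (SD, n = 23 mice) against 23.1 ± 12.5 CPM in the microglial nuclei of the same mice, and was higher in 23 of 23 mice. Aoah, a lipase that deacylates bacterial lipopolysaccharide, averaged 1239 ± 735 CPM against 16.7 ± 19.0 CPM. Rbpj, the DNA-binding effector of Notch signalling, averaged 3323 ± 1933 CPM against 121 ± 57.9 CPM. For these genes every mouse was higher in its border macrophage nuclei than in its microglia.

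Stab1, which encodes the scavenger receptor stabilin-1, was at 1941 ± 1279 CPM against 141 ± 57.1 CPM and was higher in 22 of 23 mice. The others of the 15 leading genes outside the rule were Dse, Vav3, Itsn1, Arhgef3, Samd4, Psd3, Wwp1, Sash1, Tbc1d4, Plekhg5 and P2rx7. Dse encodes an epimerase that makes dermatan sulfate, Itsn1 an endocytic scaffold, Vav3 and Arhgef3 exchange factors for small GTPases and P2rx7 the ATP-gated channel P2X7. P2rx7 stood at 1823 ± 1360 CPM against 299 ± 57.1 CPM, so it was also well expressed in microglia. The 15 were ranked by the ratio of mean CPM among genes with at least 100 UMIs in these nuclei that were detected in at least 12 mice.

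Of 32 genes listed for border macrophages outside the rule, all 32 were detected, 19 were high enough to compare, and of those 16 were higher than in microglia and 1 lower, with a median log2 ratio of 3.42. The same 16 of 19 held without Cgas+/+ replicate 5. Maf, a transcription factor of macrophages, was at 1191 ± 780 CPM against 274 ± 72.2 CPM. Slco2b1 and Blnk lay within 2-fold of microglia.

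Membrane-spanning genes of the Ms4a cluster on chromosome 19 were seen in 74 of the 92 nuclei. Ms4a7 had 58 UMIs in 38 nuclei (346 ± 450 CPM against 9.77 CPM), Ms4a4a had 52 UMIs in 32 nuclei against 15 UMIs in all 10567 microglial nuclei, and Ms4a6c had 43 UMIs in 32 nuclei. Cbr2, a carbonyl reductase, was found in 16 nuclei and Pf4, a platelet chemokine that border macrophages also make, in 8, and neither had a UMI in microglial nuclei. Colec12, a scavenger receptor with a collagen-like stalk, varied widely between mice, at 1470 ± 1461 CPM with 3 of 23 mice at 0.

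**Figure D1:**
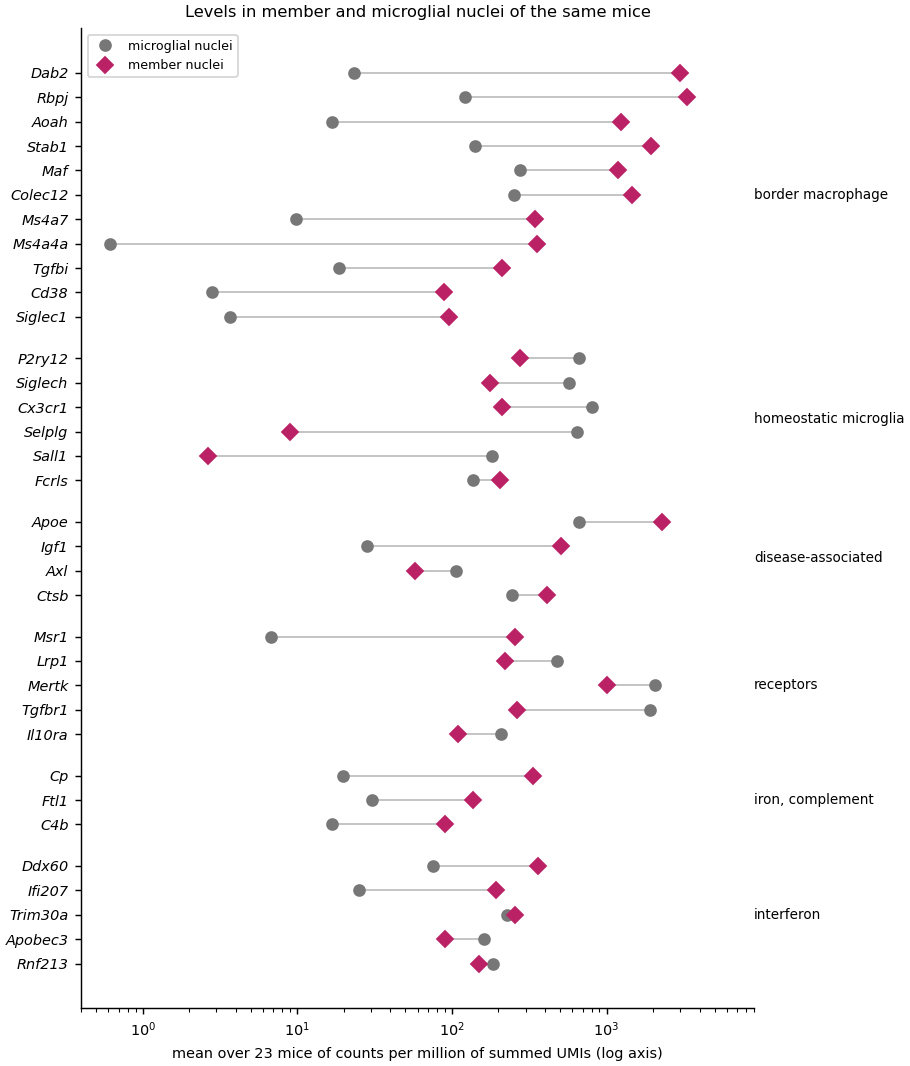
Mean over 23 mice of the CPM of each gene (log axis) in border macrophage nuclei (diamonds) and in microglial nuclei of the same mice (circles), by gene group. Dab2 lies at 2990 CPM against 23.1 and Selplg at 8.95 CPM against 647, while the values of Trim30a nearly coincide.

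The promoters of some of these genes are shown because they hold letters linked to macrophage and interferon regulators. RefSeq start sites (GRCm38.p6, 250 bases before to 50 after the start) were searched on both strands, each motif on its own, for AAANNGAAA (core of the interferon-stimulated response element), GAGGAAGT (a site of the macrophage factor PU.1) and TGCTGAC (a site of MAF factors). Capitals mark the match, read on the strand shown or on the opposite one as each line says, and each line runs 5′ to 3′ along the gene's strand. Searches for different motifs were made separately, so matches can overlap.

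Dab2 (chr15:6386498-6386577, + strand, AAANNGAAA on the opposite strand): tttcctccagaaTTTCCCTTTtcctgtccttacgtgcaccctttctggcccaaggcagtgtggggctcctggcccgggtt
Aoah (chr13:20793955-20794034, + strand, AAANNGAAA on the opposite strand): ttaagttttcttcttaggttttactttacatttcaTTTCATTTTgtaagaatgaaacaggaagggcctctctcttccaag
F13a1 (chr13:37049301-37049380, - strand, AAANNGAAA): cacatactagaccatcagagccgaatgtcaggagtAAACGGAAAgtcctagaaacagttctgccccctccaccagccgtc
Ms4a7 (chr19:11334714-11334793, - strand, AAANNGAAA on the opposite strand): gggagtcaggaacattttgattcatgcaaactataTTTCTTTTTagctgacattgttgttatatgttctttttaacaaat
Pf4 (chr5:90772355-90772434, + strand, GAGGAAGT on the opposite strand): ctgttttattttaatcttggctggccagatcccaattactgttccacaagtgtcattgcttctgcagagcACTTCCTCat
Dse (chr10:34207272-34207351, - strand, TGCTGAC): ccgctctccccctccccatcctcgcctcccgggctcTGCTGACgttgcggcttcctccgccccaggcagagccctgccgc

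Of the 15 leading genes, 13 matched RefSeq and had 24 promoters. AAANNGAAA was in 2 of the 24 (8.33%), against 10.6% of all 32851 promoters, GAGGAAGT in 1 (4.17%, against 3.20%) and TGCTGAC in 3 (12.5%, against 4.67%). In the list of 32 border macrophage genes, 26 matched, and AAANNGAAA was in 7 of 33 promoters (21.2%). In the list of 56 interferon-stimulated genes, 45 matched, and 35 of 58 promoters (60.3%) held AAANNGAAA. A match describes these letters and is not a measured binding site.

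Genes of homeostatic microglia were low. Of 12 listed, 9 could be compared and 8 were at least 2-fold lower, with a median log2 ratio of -2.02. Selplg, which encodes the P-selectin ligand PSGL-1, had 3 UMIs (8.95 ± 26.7 CPM against 647 CPM), Sall1, the transcription factor that defines microglial identity, had 1 UMI against 4008, and Tmem119 had 2 UMIs. The purinergic receptor P2ry12 was less reduced, found in 43 nuclei at 0.426 of the microglial level (95% counting interval 0.324 to 0.550), and Siglech and Cx3cr1 stood at 0.351 and 0.269 of it. Fcrls, an Fc receptor-like gene, lay within 2-fold (1.49, interval 1.07 to 2.01). No nucleus reached 10 UMIs of the 5 microglial markers, and 65 of 92 had at most 1 UMI of P2ry12, Siglech and Tmem119 together.

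Disease-associated microglial genes were more often lower than higher, with a median log2 ratio of -1.08 over the 8 compared. Apoe, the main lipid carrier of the brain, was at 2277 ± 1432 CPM against 668 ± 837 CPM, and Igf1, a growth factor, at 504 ± 543 CPM against 28.3 ± 33.9 CPM. Of the 8 compared, 2 were higher and 4 were lower, among the latter Trem2 (0.327 of the microglial level) and Axl (0.390). Itgax, Cst7, Lpl, Spp1, Gpnmb and Lgals3 were at 0 in all 92 nuclei. A 0 among the 216880 UMIs of these nuclei limits detection only and was not compared with microglia. The same holds for border macrophage zeros in the lists below.

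Scavenger and uptake receptors did not move as a block. Of 11 compared, 5 were higher and 4 lower than in microglia. Msr1, the class A scavenger receptor, had 36 UMIs in 29 nuclei and was 24.8-fold higher (interval 16.7 to 35.8), and Colec12, Stab1 and Dab2, described above, were higher too. Mertk and Axl, receptors that bind apoptotic cells, stood at 0.450 and 0.390 of the microglial level, Lrp1 at 0.382 and Havcr2 at 0.133. Gas6, a ligand of Mertk and Axl, was 5.75-fold higher (interval 4.37 to 7.45), while its receptors were lower.

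In iron handling, Cp, the ferroxidase ceruloplasmin, was 13.6-fold higher (interval 10.3 to 17.8) and Ftl1, the ferritin light chain, 2.51-fold higher (1.45 to 4.04). Fth1 and the exporter Slc40a1 lay within 2-fold. In complement, the 3 C1q genes lay within 2-fold, C4b was 4.27-fold higher (2.54 to 6.74) and C3 was at 0. Of 8 chemokine, cytokine and receptor genes compared, none was higher and 4 were lower. Tgfbr1, a receptor for the TGF-beta signal on which microglia depend, stood at 0.0984 of the microglial level (0.0703 to 0.134), while its partner Tgfbr2 was at 0.780 (0.640 to 0.943).

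Lysosome and lipid genes gave 3 higher (Apoe, Ctsc and Pparg) and 3 lower (Ctss, Ctsz and Abcg1) of 14 compared. The lipid exporter Abca1 was level with microglia (1.06, interval 0.877 to 1.27).

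Pooled over all genotypes, interferon-stimulated genes as a list were close to microglia. Of 56 listed, 47 were detected, 16 could be compared, and 2 were higher, 2 lower and 12 within 2-fold, with a median log2 ratio of 0.04 against 0.02 over all genes compared. Ddx60, an antiviral helicase, was higher at 358 ± 341 CPM against 75.8 ± 44.8 CPM, as was Ifi207, of the family of interferon-inducible DNA sensors, at 193 ± 273 CPM against 25.02 ± 31.4 CPM. By genotype, pooled Ddx60 was at 385 CPM against 36.4 CPM in Cgas+/+ and 207 CPM against 131 CPM in P301S Cgas+/+ mice. Pooled Ifi207 was at 185 CPM against 2.35 CPM and at 0 against 56.7 CPM. In border macrophages the P301S Cgas+/+ values rest on 5 UMIs of Ddx60 and 0 of Ifi207. Apobec3, a cytidine deaminase, was at 0.459 of the microglial level. Ifit1, Isg15, Rsad2, Cmpk2 and Zbp1 were at 0. In the cGAS-STING list Cgas had 3 UMIs and Sting1 had 1, and Tbk1, the kinase downstream of STING, and the interferon receptor genes Ifnar1 and Ifnar2 lay within 2-fold.

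Genes of the LYVE1-rich and MHC class II-rich subsets were each seen in some of the nuclei, at counts of few UMIs. Cd209 family genes, C-type lectins of perivascular macrophages, were detected in 36 nuclei (39.1%), MHC class II genes in 16 (17.4%, exact interval 10.3 to 26.7%), both in 3 and neither in 43. Cd209f had 26 UMIs in 22 nuclei and Cd209b 28 UMIs in 18, with 0 UMIs of either in microglial nuclei. Among MHC class II genes Cd74, the invariant chain, had 27 UMIs in 12 nuclei, with 14 of 23 mice at 0, and H2-Eb1 had 12 UMIs in 5. Only 5 nuclei held 5 or more MHC class II UMIs. No MHC class II UMI was found in the 6 Lyve1 nuclei, 4 of the 6 held a Cd209 UMI, and 7 of the 16 nuclei with MHC class II held Cd163. Whether these genes were kept apart was not tested.

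By genotype, MHC class II was detected in 9 of 54 tau-free and 7 of 38 P301S nuclei, and Cd209 family genes in 24 of 54 and 12 of 38, at median depths of 1537.5 and 1889 UMIs. Nuclei of 1 mouse share a library and 23 of the tau-free ones came from 1 mouse, so these shares were not tested. Genes of monocytes and dendritic cells were sparse. Ccr2 had 1 UMI, and Ly6c2, Plac8, Chil3, Xcr1 and Clec9a had 0. Zbtb46, a transcription factor of dendritic cells that other cells also use, had 17 UMIs in 11 nuclei. The 4 dendritic cell markers Flt3, Zbtb46, Xcr1 and Clec9a together had 24 UMIs in 15 nuclei. Their summed level was 111 CPM against 30.7 CPM in microglial nuclei. The 4 monocyte markers were at 4.61 CPM against 7.14 CPM.

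**Figure D2:**
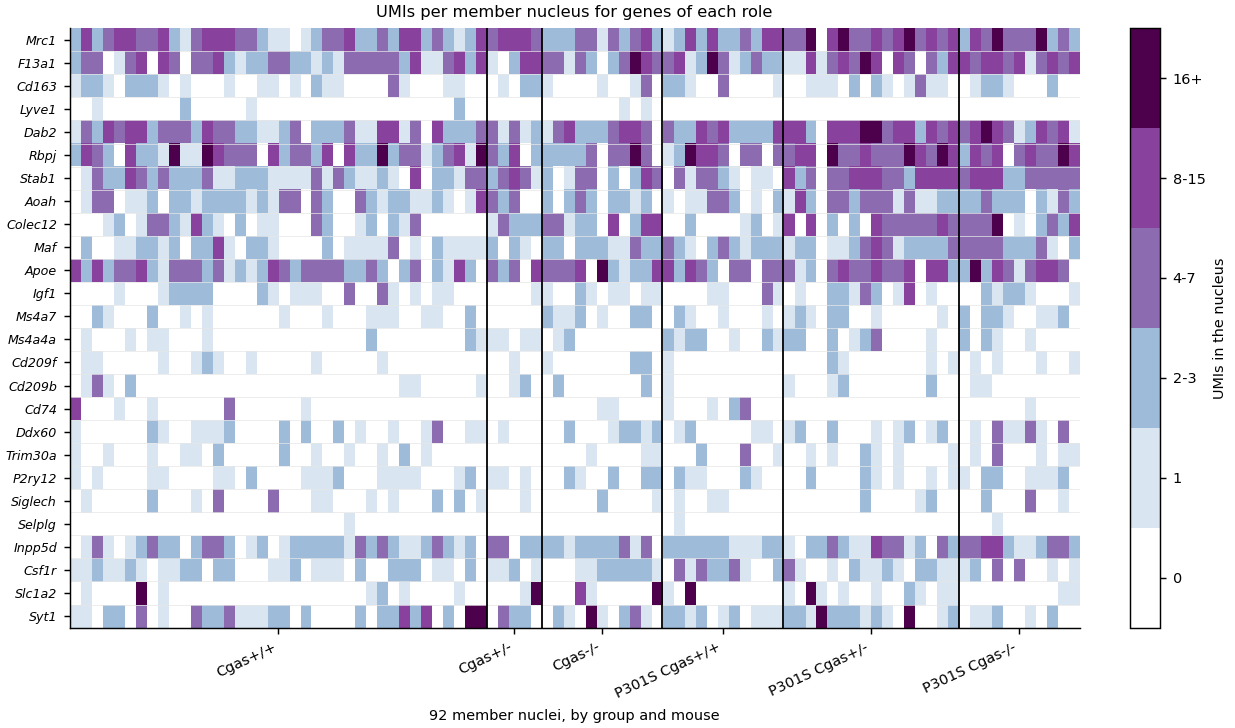
UMIs of genes of each role in each of the 92 border macrophage nuclei (columns, by group and mouse, black lines between groups), coloured in 6 steps from 0 to 16 or more UMIs in the nucleus. Mrc1, F13a1, Dab2 and Rbpj fill most columns, Cd209f, Cd209b and Cd74 a few, Selplg 3, and Slc1a2 and Syt1 mark the nuclei with RNA of other cell types.

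The number of border macrophage nuclei differed between mice with and without the tau transgene. The 9 tau-free mice gave 54 nuclei and the 18 P301S mice 38, of 70745 and 150536 nuclei that passed the filter. Cgas+/+ mice gave 7, 2, 5, 1 and 23 nuclei, shares of 0.0866, 0.0275, 0.0654, 0.0150 and 0.200% of the nuclei that passed the filter. The Cgas+/- mice gave 0 and 5 nuclei and the Cgas-/- mice 5 and 6. The lowest, median and highest numbers were 0, 1.5 and 4 in P301S Cgas+/+, 0, 3 and 4 in P301S Cgas+/- and 0, 1.5 and 4 in P301S Cgas-/- mice. No P301S mouse had more than 4 nuclei, whereas 6 of the 9 tau-free mice had 5 or more, and the ranges overlapped, since mice of each kind gave 0 nuclei.

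Across all P301S mice the share of border macrophage nuclei was 0.0263 ± 0.0187% (SD, n = 18) against 0.0686 ± 0.0582% (n = 9) in tau-free mice, 0.383 of it (exact two-sided permutation test over mice, p = 0.00365, adjusted p = 0.0146 over the 8 tests of shares and ratios). All 18 P301S mice lay below the tau-free median of 0.0699%. Without Cgas+/+ replicate 5 the tau-free mean was 0.0521% and the exact permutation p was 0.0178. In males alone the difference was -0.0472 percentage points (p = 0.0237, exact permutation test), and without Cgas+/+ replicate 5, a male, it was -0.0266 (exact permutation p = 0.0691). Among females it was -0.0171 percentage points (p = 0.345 by the same exact test), with 2 tau-free females only. Within the 12 libraries of the older software it was -0.0294 percentage points (p = 0.0931) and within the 15 of the newer -0.0675 percentage points (p = 0.0396), both by exact permutation. Without Cgas+/+ replicate 5 the difference within the newer was -0.0141 percentage points (exact permutation p = 0.440), with 2 tau-free mice left. The p under 0.05 within males and within the newer software thus rested on that mouse.

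Microglial nuclei made up 5.12 ± 1.68% of kept nuclei in P301S mice and 4.15 ± 1.60% in tau-free mice, a difference that was not tested, so border macrophages were also counted against microglia. There were 0.505 ± 0.402 border macrophage nuclei per 100 microglial nuclei in P301S mice (n = 18) against 1.77 ± 1.90 in tau-free mice (n = 9; exact permutation p = 0.00210, adjusted p = 0.0146). Without Cgas+/+ replicate 5 the difference was -0.687 (p = 0.00711, exact permutation test). The rule needs marker UMIs, and depth differed: median UMIs of kept nuclei averaged 4467 ± 1109 in P301S and 5146 ± 1370 in tau-free mice. Among nuclei of at least 1000 UMIs, each thinned to 1000, the share was 0.0211% in P301S against 0.0557% in tau-free mice (unadjusted exact permutation p = 0.00322). The number of nuclei recovered and the number of cells in the tissue cannot be told apart here.

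**Figure D3:**
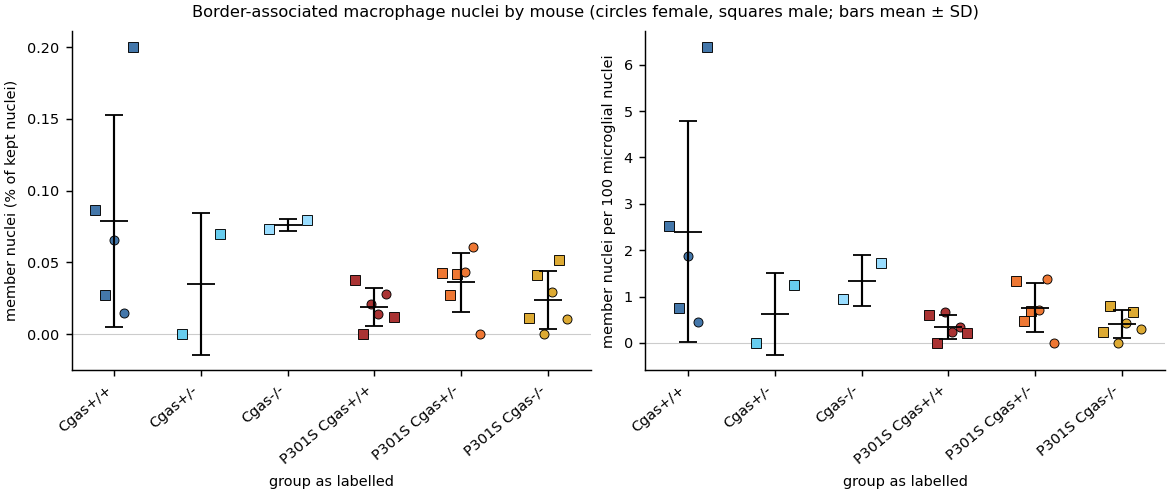
Share of border macrophage nuclei among kept nuclei (left, percent) and their number per 100 microglial nuclei (right) in each mouse (circles female, squares male) of the 6 labelled groups; bars give the mean ± SD. Cgas+/+ replicate 5 reaches 0.200% and 6.39 per 100, and all 18 P301S mice lie at or below 0.0608% and 1.37 per 100.

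Between the Cgas+/+ groups alone (the tau contrast, 6 P301S against 5 tau-free mice) the share was 0.0188 ± 0.0131% against 0.0790 ± 0.0737% (exact permutation p = 0.0260, adjusted p = 0.0519), which did not pass the adjusted threshold. It was -0.0298 percentage points without Cgas+/+ replicate 5 (exact permutation p = 0.0714). The ratio was 0.344 ± 0.252 per 100 microglial nuclei against 2.40 ± 2.38 (exact permutation p = 0.00866, adjusted p = 0.0231) and -1.06 per 100 without that mouse (exact permutation p = 0.0190). Its denominator also differed in mean, with microglial nuclei at 5.57 ± 1.72% of kept nuclei in P301S Cgas+/+ and 3.4 ± 0.19% in Cgas+/+ mice, and the part of this in the ratio was not tested. Median UMIs of kept nuclei averaged 3571 in P301S Cgas+/+ and 5641 in Cgas+/+ mice. In nuclei thinned to 1000 UMIs the share was 0.0139% against 0.0662% (unadjusted exact permutation p = 0.00433). These contrasts share mice with the comparison of all P301S and all tau-free mice.

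No difference between Cgas genotypes within P301S mice passed the test. The share was 0.0240 ± 0.0202% in P301S Cgas-/- against 0.0188 ± 0.0131% in P301S Cgas+/+ mice (n = 6 each; exact permutation p = 0.589, adjusted p = 0.673). In P301S Cgas+/- mice it was 0.0360 ± 0.0206% (exact permutation p = 0.117, adjusted p = 0.156 against the same P301S Cgas+/+ mice). The ratios to microglia gave adjusted p = 0.706 and 0.156 by exact permutation. With 0 to 4 nuclei a mouse, the counts could not show a small difference.

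Cells of the meninges and choroid plexus varied between libraries. Nuclei gated by at least 3 of 5 fibroblast markers (Dcn, Col1a1, Col1a2, Slc6a13 and Bnc2) numbered 109 in Cgas+/+ replicate 5, 76 in P301S Cgas+/- replicate 3, 30 in Cgas+/+ replicate 3 and 2 to 18 in the other mice. P301S Cgas+/- replicate 3 had 3 border macrophage nuclei, the median of its group. In the libraries of at most 50 fibroblast nuclei, chosen after these counts were seen, the share was 0.0253% in 17 P301S mice against 0.0521% in 8 tau-free mice (exact permutation p = 0.0169), and in the males of these libraries the difference was -0.0281 percentage points (p = 0.0689, exact permutation test). Choroid plexus epithelial nuclei ran from 1 to 1093 a mouse. How much the amount of border tissue in each sample contributed to the difference by transgene was not tested beyond these values.

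**Figure D4:**
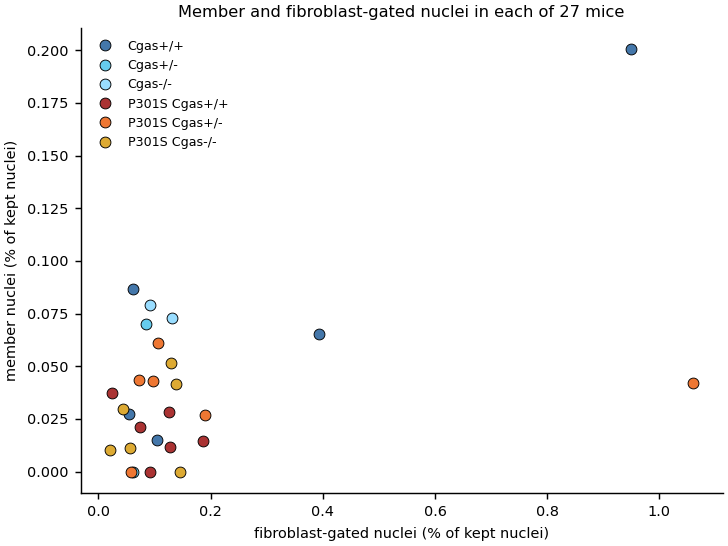
Share of border macrophage nuclei (vertical, percent of kept nuclei) against the share of fibroblast-gated nuclei (horizontal, percent) in each of the 27 mice, coloured by group. Cgas+/+ replicate 5 is high on both axes (0.200% and 0.9498%), while P301S Cgas+/- replicate 3 has the highest share of fibroblast-gated nuclei (1.06%) and 0.0419% border macrophages.

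Levels of Dab2, Rbpj and Apoe within the nuclei overlapped between mice with and without the transgene. For Dab2 the lowest, median and highest mouse were at 1222, 2349 and 3658 CPM among 8 tau-free mice and at 737, 3284 and 7890 CPM among 15 P301S mice. Rbpj ran through 865, 2630 and 5865 CPM in tau-free and 1095, 3163 and 8106 CPM in P301S mice. Apoe ran through 644, 1983 and 4126 CPM and 0, 1771 and 5111 CPM. For Dab2 and Apoe the P301S mice, with 1 to 4 nuclei each, extended beyond the tau-free range on both sides, and for Rbpj on the high side.

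UMI counts summed by mouse were tested with edgeR's quasi-likelihood test with sex as a covariate and Benjamini-Hochberg adjustment over all genes tested. Between all P301S and all tau-free mice (23 mice) 0 of 2360 genes were called at an adjusted p under 0.05 (0%), 118 had an unadjusted p under 0.05, and DESeq2 called 0. This contrast set the mean of the 3 P301S groups against the mean of the 3 tau-free groups, whatever their number of mice. Cgas+/- replicate 2, the only Cgas+/- mouse with these nuclei, thus stood for 1 of the 3 tau-free groups. Without that mouse 7 of 1775 genes were called, all lower in P301S mice. For 75 of the 2360 the fit gave no estimate (SE missing or over 100), and they are left out of the counts and medians of lists. None of the 20 border macrophage genes, 9 interferon-stimulated genes, 7 scavenger receptors outside the rule or 4 homeostatic microglial genes that passed the filter was called, and their median log2 changes were -0.19, 0.47, -0.09 and -0.24 against -0.16 over all genes tested. Grk3, a receptor kinase, had the smallest p (log2 change -2.84, SE 0.80, adjusted p = 0.398), with UMIs in 5 of 8 tau-free and 4 of 15 P301S mice. Dgkg, Tenm3, Galnt17, Cpe, Galntl6, Adamtsl1 and Atrx also had negative changes and Ctnna3 a positive one among the 10 smallest p-values, none past the threshold. Tenm3 and Galntl6 are better known from neurons, and summed neuronal markers had medians of 2052 CPM in tau-free and 1057 CPM in P301S mice; their part in these changes was not tested.

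In the tau contrast 0 of 607 genes were called (0%; 12 at an unadjusted p under 0.05, DESeq2 0), in 5 Cgas+/+ and 5 P301S Cgas+/+ mice within a fit of 20 mice of 4 groups. Nfxl1 had the smallest p (log2 change -2.95, SE 1.08, adjusted p = 0.985), detected in 5 of 5 Cgas+/+ mice with 24 UMIs and in 1 of 5 P301S Cgas+/+ mice with 1 UMI. Tenm2, Lingo2, Galntl6, Fgf12, Pcdh15, Prkce and Colec12 had negative and Plcl1 a positive change. Lingo2, Galntl6 and Fgf12 are better known from neurons. Summed neuronal markers ran from 865 to 4847 CPM (median 2345) in Cgas+/+ mice and from 548 to 1808 CPM (median 1096) in P301S Cgas+/+ mice. Their part in these changes was not tested. None of the 11 border macrophage genes, 5 scavenger receptors outside the rule or 3 disease-associated genes tested was called. Only 1 of 56 interferon-stimulated genes, Ddx60, passed the filter (log2 change -1.09, SE 0.87). The MHC class II and homeostatic microglial genes were not tested, as none passed it.

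For loss of Cgas within P301S mice 0 of 607 genes were called (0%; 14 at an unadjusted p under 0.05, DESeq2 0). Of 56 interferon-stimulated genes only Ddx60 was tested (log2 change 1.31, SE 0.88), and of 10 cGAS-STING genes only 1. The rest of these lists did not pass the filter, so this contrast says nothing of them. For P301S Cgas+/- against P301S Cgas+/+ mice 0 of 607 were called (0%; 47 at an unadjusted p under 0.05, DESeq2 0), with 43 of the 47 higher. Cntnap2, Kcnip4, Nrxn3, Meg3, Fgf12, Lingo2, Lrrtm4, Rbfox1 and Nbea, genes of neurons, filled 9 of its 10 smallest p-values. Summed neuronal markers in those mice ran from 738 to 7782 CPM (median 1988) against 548 to 1808 CPM (median 1096) in P301S Cgas+/+ mice, and their part in these changes was not tested. The smallest p-values of the Cgas-/- contrast likewise held astrocyte genes, Slc1a3 and Slc1a2, whose UMIs in P301S Cgas+/+ mice (27 and 33) all came from 1 mouse of 5. Trpm3, Ptprk, Gabrb1, Tenm3, Pitpnc1, Dscam and Pcdh15 made up the rest of the 10 with Colec12.

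Colec12 was the border macrophage gene among the 10 smallest p-values of all 3 of these contrasts, which share the P301S Cgas+/+ mice. It was at 375, 3173, 1760, 0 and 522 CPM in the Cgas+/+ mice and at 253, 0, 0, 722 and 548 CPM in the 5 P301S Cgas+/+ mice with nuclei. In P301S Cgas+/- mice it ran from 831 to 3396 CPM (median 1230) and in P301S Cgas-/- mice from 352 to 5895 CPM (median 2692). The P301S Cgas+/+ mice were thus the low group, and all 5 P301S Cgas+/- mice lay above them. The log2 changes were -1.87 (SE 0.84) for tau, 2.67 (SE 0.85) for Cgas-/- and 2.72 (SE 0.82) for Cgas+/-, with adjusted p = 0.985, 0.955 and 0.274 by edgeR. None passed the adjusted threshold, and P301S Cgas+/+ held only 7 UMIs of Colec12.

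As a check of the fit, females were compared with males of the same 20 mice. Of 607 genes 1 was called (0.165%), Xist, the RNA that coats the inactive X chromosome, with UMIs in 9 of 9 females and 0 of 11 males (log2 difference 5.90, SE 0.74, adjusted p = 6.4e-06 by edgeR). In simulated counts, described under the processing, the same kind of fit missed most seeded changes. A contrast with 0 genes called therefore does not show that no gene changed.

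The tau contrast was then compared between border macrophage and microglial nuclei of the same 20 mice, with the mouse as a block. Of 2080 genes, 4 were called (0.192%), all with a more negative contrast in border macrophages than in microglia: Colec12, Ifi207, Cd74 and Lyz2. In microglial nuclei the means of all 4 were higher in the P301S Cgas+/+ than in the Cgas+/+ mice of the fit, and in border macrophage nuclei the means of all 4 were lower, although the pooled level of Cd74 there was higher. The median difference over all 2080 genes was -0.39 on the log2 scale, so the 4 values below are to be read against it.

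Colec12 in microglial nuclei was at 7.90, 29.7, 44.9, 45.2 and 55.6 CPM in the 5 Cgas+/+ mice and at 440, 747, 47.0, 542 and 138 CPM in the 5 P301S Cgas+/+ mice with border macrophage nuclei. P301S Cgas+/+ replicate 2, which had no border macrophage nuclei and so was not in the fit, was at 25.4 CPM of Colec12, 1.49 CPM of Ifi207, 7.47 CPM of Cd74 and 2.99 CPM of Lyz2 in microglial nuclei, within or below the range of the Cgas+/+ mice. The Colec12 levels in border macrophages are given above and lay in the opposite order, with overlap. The log2 difference of the contrasts was -5.38 (SE 0.92, adjusted p = 1.0e-05, edgeR).

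Ifi207 had UMIs in 4 of 5 Cgas+/+ mice in border macrophages, at 281, 288, 352, 0 and 130 CPM, and none in the P301S Cgas+/+ mice. That 0 rests on 11 nuclei, in which a count of 0 allows up to 124 CPM (3 UMIs of all their UMIs), against a pooled 185 CPM in Cgas+/+ mice. In microglia it was at most 4.77 CPM in Cgas+/+ mice and between 5.73 and 109 CPM in P301S Cgas+/+ mice. The adjusted p was 7.3e-05 by edgeR, and the fitted log2 difference of -13.92 depends on the prior count because of the 0.

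Cd74, the MHC class II invariant chain, had a mean in border macrophages of 746 ± 1079 CPM without the transgene and 403 ± 724 CPM with it (n = 5 each, Cgas+/+), with overlapping ranges. Pooled over the nuclei the order was the opposite, 214 CPM without the transgene and 373 CPM with it. The highest mouse without it, Cgas+/+ replicate 4 at 2577 CPM, had 1 border macrophage nucleus. In microglia of the same mice it was at 16.3 ± 10.5 CPM and 264 ± 281 CPM, and the ranges of these 5 and 5 mice did not overlap. The log2 difference was -3.90 (SE 0.97, adjusted p = 0.0326, edgeR). Lyz2, the lysozyme of myeloid cells, was at 308 ± 224 CPM and 67.5 ± 151 CPM in border macrophages and 7.24 ± 4.29 CPM and 71.8 ± 94.3 CPM in microglia (log2 difference -4.71, SE 1.18, adjusted p = 0.0326, edgeR). When the microglial counts were thinned to the UMI totals of each mouse's border macrophages, 0 of the genes were called, with adjusted p = 0.216 for Colec12 and 0.621 for Ifi207.

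**Figure D5:**
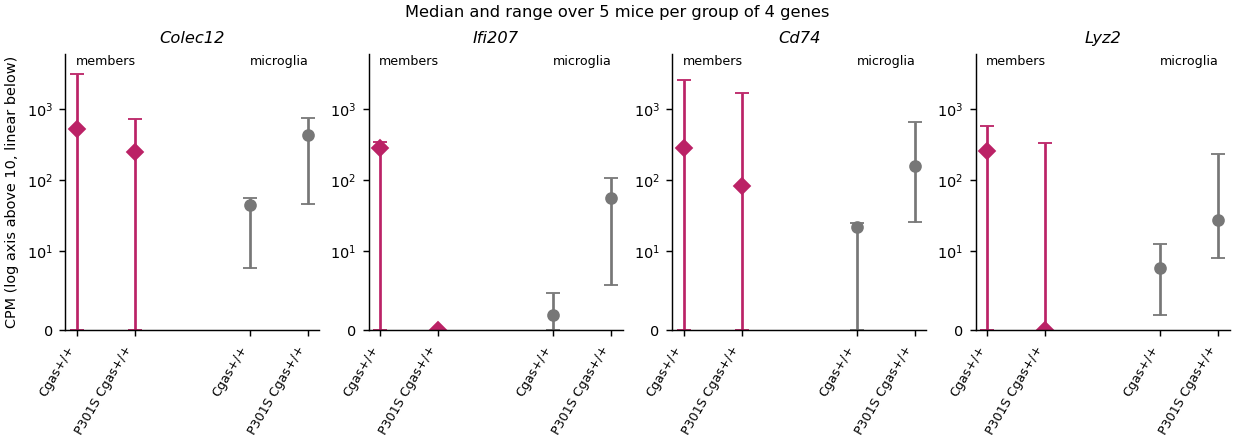
Median and range over 5 Cgas+/+ and 5 P301S Cgas+/+ mice of the CPM of Colec12, Ifi207, Cd74 and Lyz2 (log axis above 10 CPM, linear below) in border macrophage nuclei (diamonds) and microglial nuclei (circles). The medians are higher with the transgene in microglia, from 44.9 to 440 CPM for Colec12, and lower in border macrophages, from 522 to 253 CPM.

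The other genes with the 10 smallest p-values of this comparison were Ms4a7, Rftn1, Gm4951, Ppard, Aoah and Ddx60. All 6 had a more negative contrast in border macrophages, and their adjusted p ran from 0.106 to 0.228 by edgeR, so none passed the threshold. The fit gave no estimate for 6 of the 2080 genes, namely Mrc1, F13a1 and Cd163 of the rule and Cd209b, Cd209f and Clec10a. Of the 8 interferon-stimulated genes with an estimate, Ifi207 alone was called, and the median difference of the 8 was -2.48, against -0.38 over the 2074 genes with one. Of the 16 border macrophage genes with an estimate, Colec12 alone was called, with a median of -0.63. These medians are from microglial counts that were not thinned. With thinned counts the median over the 1582 genes tested was 0.06 and 0 were called, and medians of the lists were not computed.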

How the data were processed

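The authors deposited UMI counts per gene and barcode for each library, unnormalized, aligned to mm10 (Cell Ranger 3.1.0 and Seurat 3.0 in the submitters' processing notes; file headers give Cell Ranger 3.0.2 for 12 libraries and 3.1.0 for 15). The authors removed doublets with DoubletFinder and tested nuclei with MAST; neither result was used. The rule for border macrophage nuclei was applied to 31053 genes and 241938 barcodes. No nucleus was removed as a doublet in the values reported; Scrublet scores gave an alternative. Members, gene lists and tests were chosen with earlier results of these data known.

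Shares and ratios were compared over mice by an exact two-sided permutation test. Counts summed by mouse were fitted with edgeR (glmQLFit, robust; TMM; filterByExpr with a minimum count of 3 and total of 20). A minimum of 5 nuclei a mouse had been planned, but 0 P301S mice reach 5 (6 mice do), so 1 was used, in 23 mice. Leading genes had been planned as higher in 24 of 27 mice; detection in 12 mice was used instead, since 23 mice have these nuclei. Named genes were the 4 highest of each list, the 10 smallest p-values of each contrast and the 15 leading genes; other names were chosen after their values were seen, and some genes the rule names are not reported here. Replicates were numbered in accession order, and p-values measure the spread between mice. Scripts were tested on simulated data. In counts simulated with seeded changes of at least 4-fold, the fit called 65 of 287 changed genes that passed its filter in the tau contrast (22.6%). In the comparison of all P301S with all tau-free mice it called 108 of 461 such genes (23.4%). Seeded genes that failed the filter could not be called and are not in these counts. Genes called without a seeded change numbered 4 and 8 over 3 runs each. Most changes of that size would thus be missed. Python 3.11.15, numpy 2.4.6, scipy 1.17.1, pandas 2.3.3, scanpy 1.11.5, statsmodels 0.14.6, matplotlib 3.10.9, R 4.3.3, edgeR 4.0.16 and DESeq2 1.42.0 were used.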

Additional observations from a re-analysis of the deposited data

Results flagged for a closer look

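For 4 genes the tau contrast in border macrophage nuclei differed from that in microglial nuclei by the test of the difference itself (edgeR, mouse as a block), with log2 differences of -5.38 for Colec12, -13.92 for Ifi207, -3.90 for Cd74 and -4.71 for Lyz2. Leaving out each mouse of the 2 groups in turn, Colec12 and Ifi207 passed the threshold in 10 of 10 fits. Cd74 passed in 5 of the 8 fits in which it could be tested and was lost without P301S Cgas+/+ replicate 1, P301S Cgas+/+ replicate 3 or Cgas+/+ replicate 4 (adjusted p = 0.365, 0.551 and 0.179, edgeR). Lyz2 passed in 4 of 10 and was lost without Cgas+/+ replicate 1, 2 or 5 or P301S Cgas+/+ replicate 3, 5 or 6 (adjusted p from 0.0549 to 0.551, edgeR). With microglial counts thinned to the border macrophage totals none of the 4 passed, and the log2 differences were -4.74, -7.42, -2.97 and -3.28.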

How the results depend on the processing

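No paired analysis was possible because replicate numbers were given in accession order and name no shared litter, batch or animal. A minimum of 15 nuclei a mouse was not run, since 1 mouse reaches it. Settings by software version and fibroblast nuclei, and those without Cgas+/+ replicate 5 within males or version 3.1.0, were chosen after seeing the data. The share in all P301S mice lost its unadjusted p under 0.05 in females (-0.0171 percentage points) and in libraries of version 3.0.2 (-0.0294), and the ratio likewise (-0.714 and -0.628 per 100 microglia). Both also lost it in males of libraries of at most 50 fibroblast nuclei (-0.0281 and -0.660), in males without Cgas+/+ replicate 5 (-0.0266 and -0.644) and with 3.1.0 without that mouse (-0.0141 and -0.696). The tau contrast lost it too in the same males, under either setting (-0.0406 and -1.37), and with 3.1.0 without that mouse (-0.0214 and -0.799). These losses were fixed in advance, since the smallest p the exact permutation test allows is 0.1 in these males and 0.0667 with 3.1.0 without that mouse. The tau contrast of the share lost it with at least 3 markers (-0.0276), in males (-0.0884), in females (-0.0190), with version 3.0.2 (-0.0383) or 3.1.0 (-0.0748) and at most 50 fibroblast nuclei (-0.0298), and its ratio in males (-2.95), in females (-0.748), with 3.0.2 (-1.34) and with 3.1.0 (-2.54). In males, in females and with 3.0.2 this contrast has too few mice for the exact test to give p under 0.05. Those losses were fixed in advance, and the ratio's exact permutation p of 0.1 in males is the smallest possible. The Cgas-/- contrast changed sign in nuclei with at most 1 UMI of P2ry12, Siglech and Tmem119 (share -0.000406, ratio -0.0332), in females (-0.00788 and -0.171) and, for the ratio, with 3.1.0 (-0.0133). Leaving out 1 mouse gave shares of -0.0509 to -0.0258 for all P301S mice, -0.0762 to -0.0298 for tau, -0.000255 to 0.0101 for Cgas-/- and 0.0123 to 0.0245 for Cgas+/-, and ratios of -1.49 to -0.687, -2.54 to -1.06, -0.0138 to 0.146 and 0.297 to 0.571. The Cgas-/- share changed sign without replicate 5 of the P301S Cgas-/- mice, and its ratio without replicate 2 of either group. Without P301S Cgas+/- replicate 6 the Cgas+/- contrast had an unadjusted exact permutation p = 0.0130 for the share and 0.0152 for the ratio. The tau share lost its unadjusted p under 0.05 without any 1 of P301S Cgas+/+ replicates 2 to 6 or Cgas+/+ replicates 1, 3 and 5. Genes called became 1 for all P301S mice with no sex covariate (Tenm3), 1 for Cgas-/- and 5 for Cgas+/- with no filter beyond 1 UMI, 10 with default filters and 0 with thinned microglia for the difference from microglia, and 0 with at least 3 markers, 0 with default filters and 3 with no filter for sex. Leaving out 1 mouse gave 0 to 7 for all P301S mice (7 without Cgas+/- replicate 2), 0 to 0 for tau and for Cgas-/-, 0 to 4 for Cgas+/- (4 without P301S Cgas+/- replicate 2), 2 to 7 for the difference (2 without Cgas+/+ replicate 1 or P301S Cgas+/+ replicate 3 or 5, 7 without P301S Cgas+/+ replicate 4) and 1 to 3 for sex. Slc1a2 in the Cgas-/- contrast ran from -4.70 to 1.27, the latter without P301S Cgas+/+ replicate 1, where its UMIs lay. The cause of these changes was not tested. For named genes, 288 values under other settings kept direction and side of the threshold, 3 moved past it and 4 fell below it, and with 1 mouse left out 735 kept both, 14 moved past it, 9 fell below it and 1 changed sign. With 1 to 4 nuclei in each P301S mouse that had any, depth limits every gene level.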
